A study of Mus musculus with 23 samples.

Results

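Keratins are the proteins of the intermediate filaments of epithelial cells, and the array carried probes for 51 keratin genes among 35019 gene symbols. The members are all array symbols made of Krt, a number and at most 1 letter, with the keratin-associated protein genes left out. They were measured with 67 probes, and each gene was followed through its probe with the highest mean signal over all arrays. A gene was kept where 7 or more of the 23 arrays had that probe marked as well above background by the scanner software. In this way 47 keratins were kept, among 28366 genes kept in all. Krt25, Krt26, Krt39 and Krt40, keratins of the hair follicle and hair shaft, were not well above background on more than 1 array and were not tested.

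The samples were circumvallate papillae of male C57Bl6/j mice, a single large papilla far back on the tongue that holds many taste buds, measured on 23 Agilent arrays of a single colour. The DIO-R group had 8 samples and is read here as mice on the obesogenic diet, rich in saturated fat, whose energy intake was held at 60% of free intake, since the labels do not spell the name out. The DIO group had 8 samples of mice that ate the obesogenic diet freely, and the Lean group had 7 samples of mice that ate chow with 3% fat by weight. The lingual epithelium was freed from the tissue beneath it with elastase and dispase, the papilla was cut out, and 25 ng of its RNA was labelled. Ages, the length of the diets and the hour of sampling were not given in the sources used here. No label says that each sample is a separate animal, so p-values measure the spread between samples, which may in part be technical. The share of probes well above background was 66.9% to 78.4% by array, and 0 spots were saturated. The arrays lay on 3 slides, each of which held all the groups. A test between slides called 201 genes (0.709% of those kept) and 0 keratins (limma, adjusted p under 0.05).

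A keratin filament is built from pairs of an acidic type I and a basic type II keratin, and each layer of an epithelium uses its own pair. Cells of the basal layer make Krt5 with Krt14, cells that leave it switch to Krt1 with Krt10 in cornifying skin or to Krt4 with Krt13 in moist mucosa, and simple epithelia make Krt8 with Krt18. In the tongue, taste bud cells are known for Krt8, Krt18, Krt19 and Krt20, while the hard keratins Krt36 and Krt84 belong to the horny filiform papillae of the surface. In the array's annotation (build mm9), 27 of the keratin probes used lay on chromosome 11 and 23 on chromosome 15, the sites of the type I and the type II gene clusters, and the probe used for Krt85 had no position.

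The probes themselves set a limit on some members. Each is 60 bases long, and 3 of them, for the hair keratins Krt85, Krt81 and Krt83, are nearly the same sequence. The Krt81 and Krt83 probes match at 51 of 55 aligned bases, those of Krt81 and Krt85 at 51 of 57, and those of Krt83 and Krt85 at 50 of 58. A stretch of 30 bases from each probe is given here because it shows how little separates them, with the 6 positions at which the 3 differ in capitals.
Krt85: atgaactccaagCtggCActggaCAtCgag
Krt81: atgaactccaagCtggGGctggaCGtTgag
Krt83: atgaactccaagTtggGGctggaTGtCgag
A signal on any of these probes may therefore come from another of the 3 transcripts, in part or in whole. The 3 probes did not read alike, with mean levels of 4.02 for Krt85, 1.21 for Krt81 and -4.48 for Krt83 (log2, on the scale defined below). Sources outside the 3 transcripts were not tested. The accession behind the Krt83 probe carries the symbol Krt87 in RefSeq.

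Upstream sequences were found for 34 of the 51 keratins in a RefSeq promoter table (assembly GRCm38.p6), with 35 promoters in all. The 250 bases before each start were searched for 5 motifs. The TATA box letters TATAAA, read on the gene strand, occurred in 15 of 35 keratin promoters (42.9%), against 7.6% of 32851 promoters of the whole table. Most of these matches lay before hair keratins. Among the basal, suprabasal, papilla and simple keratins found, only Krt10, Krt20 and Krt76 had a match. Several lingual keratins, such as Krt4, Krt6a, Krt15 and Krt17, had no promoter there. The GC box letters GGGCGG, read on both strands, occurred in 5.7% of the keratin promoters, against 32.7% of all promoters. The AP-1 letters TGANTCA were found in 5.7% of the keratin promoters and 6.7% of all, the AP-2 letters GCCNNNGGC in 11.4% and 13.7%, and the LEF/TCF letters CTTTGA in 22.9% and 13.8%, each on both strands. Such matches describe the letters and are no evidence of binding. The 150 bases before the start are given for 5 members whose signals moved in pairs or sets described further on: Krt36 (chr11:100105627-100105776, minus strand), Krt84 (chr15:101532821-101532970, minus strand), Krt32 (chr11:100088270-100088419, minus strand), Krt20 (chr11:99438154-99438303, minus strand) and Krt7 (chr15:101412253-101412402, plus strand). Capitals mark motif matches, and matches that overlap run together.
Krt36: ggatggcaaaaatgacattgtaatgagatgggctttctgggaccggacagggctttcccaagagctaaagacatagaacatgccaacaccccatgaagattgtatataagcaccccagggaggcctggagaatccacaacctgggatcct
Krt84: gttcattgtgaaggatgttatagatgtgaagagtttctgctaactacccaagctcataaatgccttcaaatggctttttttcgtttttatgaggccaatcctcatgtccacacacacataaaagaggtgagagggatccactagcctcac
Krt32: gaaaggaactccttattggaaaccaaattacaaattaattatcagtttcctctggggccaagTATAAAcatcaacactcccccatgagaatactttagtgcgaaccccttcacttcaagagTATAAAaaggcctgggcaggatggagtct
Krt20: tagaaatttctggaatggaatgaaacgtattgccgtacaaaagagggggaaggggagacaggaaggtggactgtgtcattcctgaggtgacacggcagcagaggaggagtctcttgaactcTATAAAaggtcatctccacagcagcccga
Krt7: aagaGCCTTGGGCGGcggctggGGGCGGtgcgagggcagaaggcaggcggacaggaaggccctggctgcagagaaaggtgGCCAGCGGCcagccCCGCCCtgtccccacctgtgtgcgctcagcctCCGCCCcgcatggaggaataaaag
In Krt32 and in Krt20 the match to TATAAA nearest the start begins at position -29. The stretch before Krt7 holds matches to the GC box and the AP-2 letters, and those before Krt36 and Krt84 hold no match to the 5 motifs as spelled here.

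Levels are given as log2 of the background-subtracted probe intensity relative to the 75th percentile of the same array, so that 0 is the signal of a fairly bright probe and 1 unit is a doubling. Probes differ in how well they hybridise, so the order of signals is not an order of mRNA amounts. The brightest keratin probes were those of Krt17 (8.49, mean of 23 samples), Krt13 (8.24), Krt5 (8.12), Krt6b (8.11), Krt76 (7.35), Krt6a (7.27), Krt18 (7.17), Krt4 (7.11), Krt15 (7.02) and Krt16 (6.94). All classes of lingual keratin were thus among the brightest 10: basal (Krt5, Krt15), suprabasal (Krt13, Krt76, Krt4), papilla (Krt17, Krt6b, Krt6a, Krt16) and simple (Krt18). Lower in the order stood Krt8 at 5.48, Krt14 at 5.18, Krt84 at 5.08, Krt78 at 5.00, Krt19 at 4.64, Krt10 at 4.47 and Krt36 at 4.18. Krt1, the partner of Krt10 in skin, had a mean of 1.27, and the epidermal keratins Krt2, Krt9 and Krt77 had -1.45, -2.46 and -3.76. The dimmest kept probes belonged to keratins of hair and its root sheath, down to Krt28 at -5.33 and Krt71 at -5.51. The probes agree poorly within some genes: the second probe of Krt42 averaged -6.10 and was well above background on 4 arrays, while the probe used averaged 3.44, and the other probes of Krt85 averaged -0.51 and -2.98 against 4.02.

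**Figure D1:**
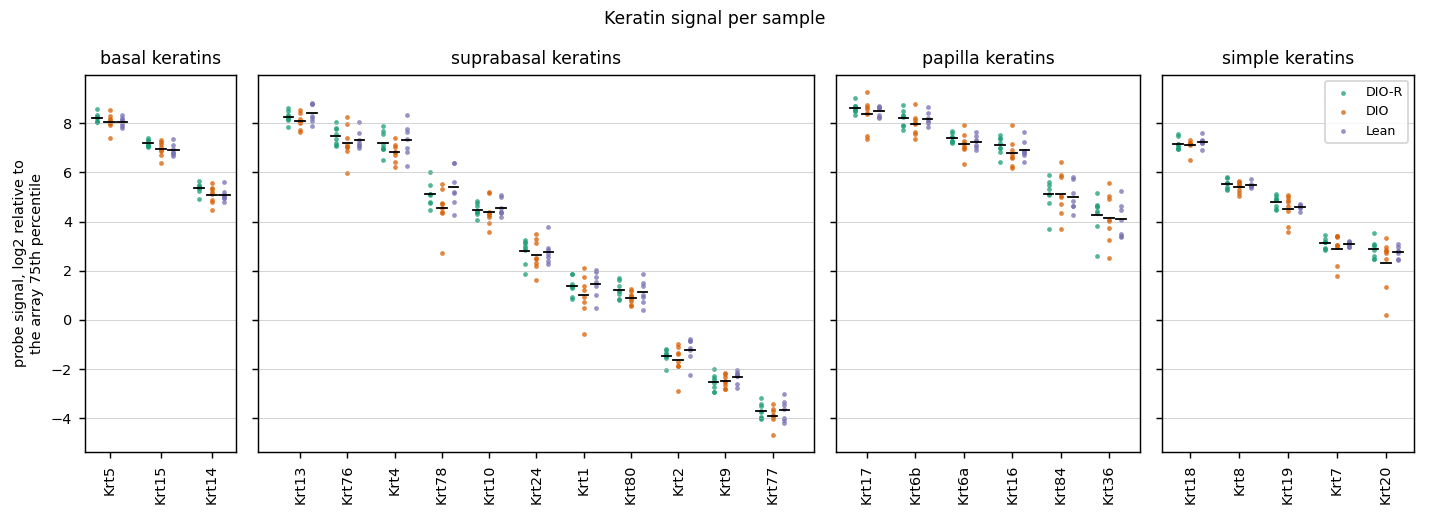
Probe signal (y axis, log2 relative to the array's 75th percentile) of the kept basal, suprabasal, papilla and simple keratins, with a point per sample for DIO-R, DIO and Lean papillae and a black bar at each group mean. The groups overlap for every keratin, and Krt20 shows 2 DIO samples at 0.21 and 1.34, below all others.

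No keratin passed an adjusted p of 0.05 in any of the 3 comparisons (limma, Benjamini-Hochberg over all genes kept). The smallest adjusted p of a keratin was 0.492 in DIO-R against DIO, 0.443 in DIO against Lean and 0.246 in DIO-R against Lean. The share of all genes that passed was itself small, at 0.0599%, 0.00353% and 0.127%. At an unadjusted p under 0.05, 3 of 47 keratins stood in DIO-R against DIO (2 higher, 1 lower), against 9.73% of all genes. Of the 47 in DIO against Lean, 5 did, all lower, against 8.95%, and in DIO-R against Lean 3 of 47 did (2 higher, 1 lower), against 8.95%. These counts lie near or below the background. For 0 keratins did the samples of 2 groups fail to overlap, where the background was 0.0881% of genes in DIO-R against DIO, 0.12% in DIO against Lean and 0.303% in DIO-R against Lean.

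The direction of the estimates was less even than their tests. In DIO-R against DIO 41 of 47 keratins had a positive estimate, against 51.7% of all genes, with a median log2 difference of 0.21 beside 0.01 over all genes. Between DIO and Lean, 38 of 47 had a negative estimate, against 58.9% of all genes, with a median of -0.13 beside -0.04. In DIO-R against Lean 29 of 47 had a positive estimate, against 44.6%, with a median of 0.04 beside -0.02. Each pair of these comparisons shares a group of samples, and keratins moved together from sample to sample, so these counts are no independent votes. In bulk tissue, fewer cells of a type and less RNA per cell cannot be told apart.

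**Figure D2:**
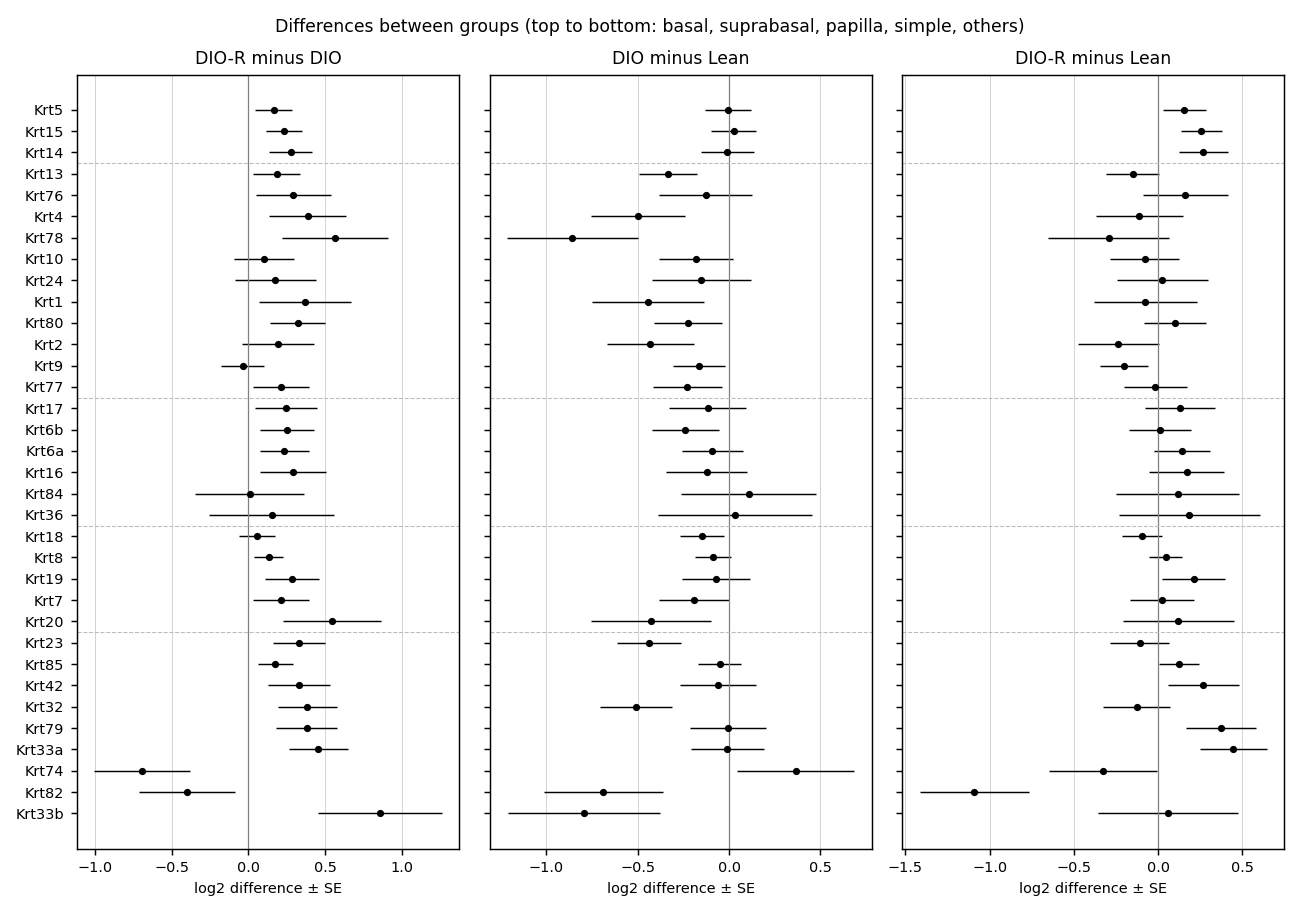
Estimated log2 difference (points, x axis) with its standard error (bars) for the 34 keratins described, in DIO-R minus DIO, DIO minus Lean and DIO-R minus Lean papillae; dashed lines part the basal, suprabasal, papilla, simple and other keratins. All 11 suprabasal keratins lie below 0 in DIO minus Lean, and the basal keratins lie near 0 there.

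The basal keratins Krt5, Krt14 and Krt15 had close values in DIO and Lean papillae and higher means in DIO-R papillae, without passing the test. Krt5, the type II keratin of basal cells, ran from 8.04 over a median of 8.22 to 8.57 in DIO-R, from 7.39 over 8.07 to 8.53 in DIO and from 7.79 over 8.12 to 8.35 in Lean. Krt14, its type I partner, ran from 4.93 over 5.39 to 5.65 in DIO-R, from 4.47 over 5.16 to 5.57 in DIO and from 4.80 over 5.03 to 5.61 in Lean. The lowest DIO sample in both genes was DIO 6, and the groups overlapped. Krt15, a type I keratin of basal cells that also marks progenitor cells of lingual epithelium in mice, ran from 7.03 over 7.14 to 7.41 in DIO-R, from 6.39 over 6.97 to 7.31 in DIO and from 6.69 over 6.82 to 7.35 in Lean. Every DIO-R sample lay above both the DIO and the Lean mean of Krt15 (8 of 8). Its difference was 0.23 ± 0.12 (SE) in DIO-R against DIO (adjusted p = 0.523, limma) and 0.26 ± 0.12 in DIO-R against Lean (adjusted p = 0.544, limma). For Krt14 the same differences were 0.28 ± 0.14 and 0.27 ± 0.14, and for Krt5 they were 0.16 ± 0.12 and 0.16 ± 0.13. Without DIO 6 the differences in DIO-R against DIO were 0.15 for Krt15, 0.19 for Krt14 and 0.07 for Krt5, and a further probe of Krt5 gave 0.05 there and 0.13 in DIO-R against Lean with all samples. In DIO against Lean the 3 genes had 0.02, -0.01 and -0.01 for Krt15, Krt14 and Krt5. The median of the class in DIO-R against DIO was 0.26, 0.16 and 0.24 within slides 1, 2 and 3, and in DIO-R against Lean it was 0.37, 0.19 and 0.18.

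The suprabasal keratins all had lower means in DIO than in Lean papillae, 11 of 11, against 58.9% of all genes, with a class median of -0.23 beside -0.04. Of the 11, 2 had an unadjusted p under 0.05, against 8.95% of all genes. Krt13, the type I keratin of differentiating mucosal cells, ran from 7.87 over 8.24 to 8.62 in DIO-R, from 7.63 over 8.04 to 8.55 in DIO and from 7.89 over 8.30 to 8.84 in Lean. Its type II partner Krt4 ran from 6.50 over 7.06 to 7.89 in DIO-R, from 6.23 over 6.83 to 7.39 in DIO and from 6.26 over 7.35 to 8.35 in Lean. The Lean samples spread most, with Lean 7 at the bottom for both genes. Krt78, a type II keratin of stratified epithelia, ran from 4.47 over 5.09 to 6.03 in DIO-R, from 2.72 over 4.62 to 5.52 in DIO and from 4.25 over 5.19 to 6.39 in Lean. Only 1 of 8 DIO samples lay above the Lean mean of Krt78, and likewise of Krt4. The difference in DIO against Lean was -0.86 ± 0.36 for Krt78 (adjusted p = 0.476), -0.50 ± 0.26 for Krt4 (adjusted p = 0.597) and -0.33 ± 0.16 for Krt13 (adjusted p = 0.548), all by limma. Without Lean 3 that of Krt4 was -0.33. The other probes of 2 of these genes gave close values, -0.83 for Krt78 and -0.31 for Krt13. Those of Krt78 overlap for most of their length (r = 0.998), so they are nearly the same measurement.

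In DIO-R against DIO the suprabasal estimates were positive for 10 of 11 genes, with a median of 0.21, and in DIO-R against Lean 8 of 11 were negative, with a median of -0.08. Krt78, Krt4 and Krt13 had differences of 0.56 ± 0.35, 0.39 ± 0.25 and 0.18 ± 0.15 in DIO-R against DIO and of -0.29, -0.11 and -0.15 in DIO-R against Lean. Without DIO 2 the DIO-R against DIO differences of Krt78 and Krt13 were 0.30 and 0.12. Krt76, the type II keratin of the palate and tongue surface, differed by 0.29 ± 0.24 in DIO-R against DIO and by -0.13 ± 0.25 in DIO against Lean. The epidermal pair Krt1 and Krt10 differed by -0.44 ± 0.31 and -0.18 ± 0.20 in DIO against Lean, and Krt2, the late epidermal keratin, by -0.43 ± 0.24. Without DIO 6 the first 2 were -0.22 and -0.07, and without DIO 2 that of Krt2 was -0.25. Krt10 has a further probe whose difference in DIO against Lean was 0.01, against -0.18 for the probe used. The further probe of Krt2 gave -0.03, but it was dim (mean -6.9) and well above background on 0 arrays. For the rest of the class (Krt80, Krt77, Krt9 and Krt24) the differences in DIO against Lean ran from -0.23 to -0.15. The DIO against Lean median of the class differed between slides: it was -0.09 and -0.12 within slides 1 and 2 and -0.73 within slide 3, where Krt78 stood at -2.03 and Krt4 at -1.34. Slide 3 held 2 DIO and 2 Lean samples, among them DIO 2, the lowest DIO sample of Krt78, Krt4 and Krt13, and Lean 3, the highest sample of Krt4.

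Among the papilla keratins, the hard keratins Krt84 (type II) and Krt36 (type I), which build the filiform papillae, varied widely between samples of a group. Krt84 ran from 3.68 over 5.22 to 5.90 in DIO-R, from 3.70 over 5.03 to 6.43 in DIO and from 4.25 over 4.84 to 5.82 in Lean. Krt36 ran from 2.60 over 4.52 to 5.17 in DIO-R, from 2.51 over 4.03 to 5.56 in DIO and from 3.37 over 4.07 to 5.25 in Lean. The same samples stood at the ends of both genes: DIO-R 4 and DIO-R 3, DIO 2 and DIO 3, and Lean 4 and Lean 9. The SD of Krt36 was 0.78 in DIO-R, 1.00 in DIO and 0.71 in Lean, several times its differences of 0.15 ± 0.41 in DIO-R against DIO and 0.03 ± 0.42 in DIO against Lean. The differences of Krt84 were 0.01 ± 0.35 and 0.11 ± 0.37.

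Krt6a, Krt6b, Krt16 and Krt17, keratins of filiform papillae and of wounded skin, were bright in all samples. Krt6a and Krt6b are near-identical gene copies, and transcripts of either may bind the probe of the other. Krt16 ran from 6.44 over 7.10 to 7.53 in DIO-R, from 6.20 over 6.69 to 7.92 in DIO and from 6.42 over 6.82 to 7.64 in Lean. Krt17 ran from 8.33 over 8.58 to 9.04 in DIO-R, from 7.36 over 8.51 to 9.28 in DIO and from 8.22 over 8.60 to 8.70 in Lean, so that DIO held both the lowest and the highest sample. In DIO-R against DIO the differences were 0.23 ± 0.16 for Krt6a, 0.25 ± 0.18 for Krt6b, 0.29 ± 0.21 for Krt16 and 0.25 ± 0.20 for Krt17, with adjusted p from 0.612 to 0.668 (limma). Without DIO 6 they were 0.12 for Krt6a, 0.17 for Krt6b and 0.12 for Krt17, and without DIO 3 that of Krt16 was 0.45. Between DIO and Lean they lay between -0.24 (Krt6b) and -0.09 (Krt6a). All 6 papilla keratins had positive estimates in DIO-R against DIO (median 0.24) and in DIO-R against Lean (median 0.14), yet within slide 2 these medians were -0.01 and -0.08.

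The simple keratins, several of them made by taste bud cells, had close medians in the 3 groups, and 2 DIO samples stood apart. Krt20, a type I keratin of taste bud and gut cells, ran from 2.46 over 2.92 to 3.52 in DIO-R, from 0.21 over 2.76 to 3.33 in DIO and from 2.45 over 2.78 to 3.08 in Lean. The low DIO values were those of DIO 1 at 0.21 and DIO 6 at 1.34, and the other DIO samples ran from 2.47 to 3.33. Krt7, a type II keratin of simple and ductal epithelia, read 1.77 in DIO 1 and 2.21 in DIO 6, while the other DIO samples ran from 2.97 to 3.40. Krt19, a type I keratin of taste buds and simple epithelia, read 3.56 and 3.79 in these samples, while the other DIO samples ran from 4.41 to 5.06. Krt8 and Krt18 showed no such gap: Krt8 read 5.18 and 5.27 within a DIO range of 5.04 to 5.64, and Krt18 read 7.13 and 7.15 within 6.51 to 7.32.

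The gap was shared with probes outside the class. Krt75, a type II keratin known from the hair follicle, read 0.15 in DIO 1 and 1.59 in DIO 6, while the other DIO samples ran from 2.37 to 3.42. Krt17 read 7.36 and 7.50, while the other DIO samples ran from 8.38 to 9.28. The taste cell list, 17 genes such as Gnat3 and Trpm5 that were all kept, had a mean level (relative to the mean of all samples) of -1.09 in DIO 1 and -0.53 in DIO 6, while all other samples of the study ran from -0.19 to 0.29. On the same scale the von Ebner gland list had its highest values in these samples, 1.24 and 1.47, with other samples from -2.84 to 1.02. The part of taste bud or gland content in the keratin values was not tested. The 2 samples were not low throughout: DIO 1 had Krt84 at 5.88, Krt36 at 4.90 and Krt13 at 8.43, near the top of the DIO range, whereas DIO 6 had 4.34, 3.24 and 8.01.

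**Figure D3:**
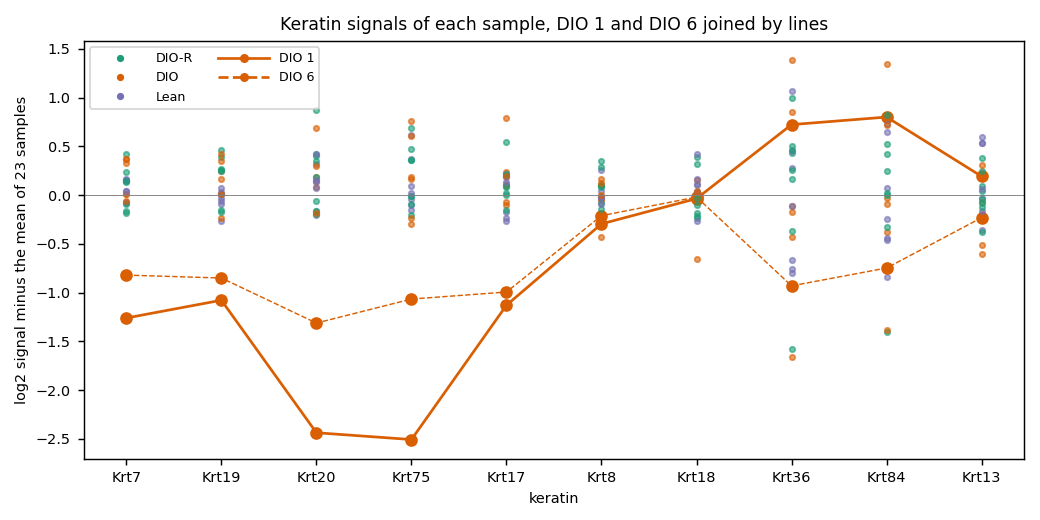
Signal of 10 keratins in each of the 23 samples as the log2 difference from the mean of all samples (y axis), coloured by group, with DIO 1 and DIO 6 joined by lines. Both fall below all other samples for Krt7, Krt19, Krt20, Krt75 and Krt17 and within the others for Krt8, Krt18, Krt36, Krt84 and Krt13.

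The DIO differences of Krt20, Krt7 and Krt19 rested on these samples. With all samples, the class median was 0.21 in DIO-R against DIO (5 of 5 positive), -0.15 in DIO against Lean (5 of 5 negative) and 0.04 in DIO-R against Lean. Without DIO 1 and DIO 6, a choice made after the data were seen, the first 2 medians were 0.03 and 0.09. Krt20 differed by 0.54 ± 0.32 in DIO-R against DIO with all samples (adjusted p = 0.56, limma) and by 0.03 without them. Its DIO against Lean difference was -0.43 ± 0.33 with all samples and 0.09 without them. In the same way Krt7 had 0.21 ± 0.18 and then -0.09 in DIO-R against DIO, Krt19 had 0.28 ± 0.18 and then 0.00, and Krt17 had 0.25 ± 0.20 and then -0.07. The pair Krt8 and Krt18 had 0.13 ± 0.09 and 0.06 ± 0.12 in DIO-R against DIO with all samples. Leaving the 2 samples out hardly moved the median of the suprabasal class, which in DIO against Lean was then -0.22, with Krt78 at -0.99, Krt4 at -0.60 and Krt1 at -0.10. In DIO-R against Lean, which holds no DIO sample, Krt20, Krt7 and Krt19 differed by 0.12 ± 0.33, 0.02 ± 0.19 and 0.21 ± 0.18.

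Among keratins outside these classes, those of hair were mostly dim, and Krt23, Krt85, Krt42 and Krt32 had the brightest probes. Krt23, a type I keratin of glandular and stratified epithelia, ran from 6.03 over 6.43 to 6.94 in DIO-R, from 5.64 over 6.05 to 6.71 in DIO and from 6.05 over 6.47 to 7.09 in Lean. Its difference was -0.44 ± 0.18 in DIO against Lean (adjusted p = 0.463) and 0.33 ± 0.17 in DIO-R against DIO (limma). Krt32, a type I keratin of the hair cuticle, ran from 3.05 over 3.46 to 3.87 in DIO-R, from 2.51 over 3.13 to 3.68 in DIO and from 2.97 over 3.42 to 4.17 in Lean. Its difference of -0.51 ± 0.20 in DIO against Lean had the smallest p of any keratin in that comparison (adjusted p = 0.443, limma), and 1 of 8 DIO samples lay above the Lean mean. Krt79, a type II keratin of the follicle's upper part, and Krt42, a type I keratin, differed by 0.38 ± 0.20 and 0.33 ± 0.20 in DIO-R against DIO, and the Krt85 probe by 0.18 ± 0.11. Without DIO 6 these were 0.24, 0.17 and 0.09.

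Several of the larger estimates belonged to dim probes. Krt82, a type II keratin of the hair cuticle, ran from -6.57 over -5.17 to -4.49 in DIO-R, from -6.84 over -4.82 to -4.48 in DIO and from -4.83 over -4.31 to -3.89 in Lean. It was well above background on 4 of 8 DIO-R, 6 of 8 DIO and 7 of 7 Lean arrays. Its difference of -1.09 ± 0.32 in DIO-R against Lean had the smallest p of the keratins (adjusted p = 0.246, limma), and 0 of 8 DIO-R samples lay above the Lean mean. Within single slides this difference lay between -2.10 and -0.41, and over the alternatives listed at the end between -1.22 and -0.235. Krt33a and Krt33b, type I keratins of the hair cortex, differed by 0.46 ± 0.19 (adjusted p = 0.492) and 0.86 ± 0.40 (adjusted p = 0.507) in DIO-R against DIO by limma, and Krt74, of the inner root sheath, by -0.69 ± 0.31 (adjusted p = 0.501). Without DIO 10 the Krt33b difference was 0.49, and over the alternatives listed at the end it ran from 0.098 to 1.3. Its probe was well above background on 8 of 8 DIO-R, 4 of 8 DIO and 7 of 7 Lean arrays.

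Partner keratins moved together from sample to sample within groups. For 6 pairs of a type II and a type I keratin, group means were removed and the rest was correlated over the 23 samples, with p-values from 100000 permutations within groups, two-sided and adjusted over the 6 pairs. Signals of a sample share its dissection, its RNA and its array. Krt84 and Krt36 had r = 0.985 and rho = 0.980 (adjusted permutation p = 3e-05 for each, from p = 1e-05, the smallest the permutations can give), and r = 0.975 without DIO-R 4 and DIO 2. Krt4 and Krt13 had r = 0.871 and rho = 0.854 (adjusted permutation p = 3e-05 for each), and r = 0.852 without Lean 7 and Lean 3. Within slides 1, 2 and 3, without removing group means, r was 0.977, 0.995 and 0.977 for the hard keratins and 0.895, 0.721 and 0.987 for the mucosal pair.

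The other pairs were looser, and their r fell without the 2 farthest samples, least so for Krt8 with Krt18. Krt5 and Krt14 had r = 0.720 and rho = 0.588 (adjusted permutation p = 0.00124 and 0.00841), and r = 0.498 without DIO 6 and DIO 3. Krt6a and Krt16 had r = 0.721 and rho = 0.557 (adjusted permutation p = 0.00132 and 0.0127), and r = 0.510 without the same samples. Krt8 and Krt18 had r = 0.642 and rho = 0.645 (adjusted permutation p = 0.00206 and 0.00124), and r = 0.563 without DIO 10 and DIO-R 3. Krt1 and Krt10 had r = 0.548 and rho = 0.474 (adjusted permutation p = 0.0281 and 0.0396), but r = 0.211 without DIO 6 and DIO 3. Without DIO 1 and DIO 6 their r was 0.636, so the value depended on which samples were left out. Within slides 1, 2 and 3 the values were 0.693, 0.861 and 0.591 for Krt5 with Krt14, 0.770, 0.825 and 0.333 for Krt6a with Krt16, 0.720, 0.800 and 0.544 for Krt8 with Krt18, and 0.280, 0.842 and 0.619 for Krt1 with Krt10.

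**Figure D4:**
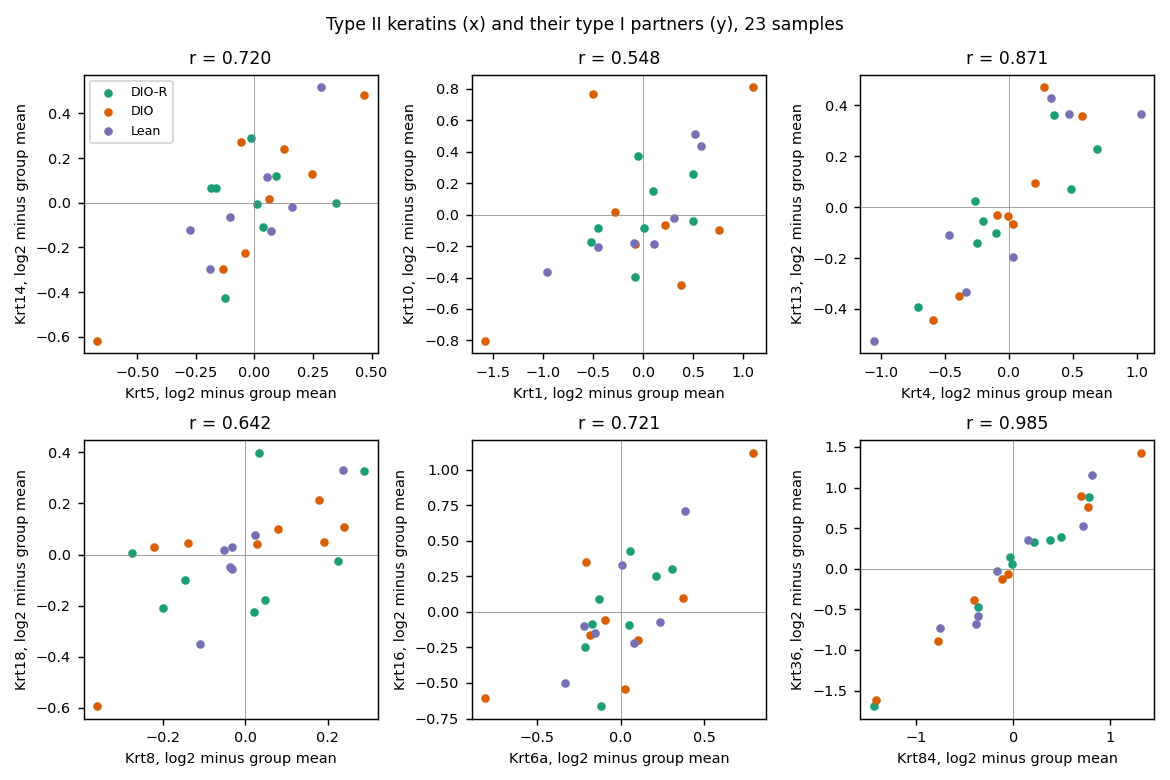
Log2 signal minus the group mean of 6 type II keratins (x axis) and their type I partners (y axis), with a point per sample coloured by DIO-R, DIO and Lean group. Krt84 and Krt36 lie on a line (r = 0.985), while Krt1 and Krt10 scatter (r = 0.548).

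Over all 1081 pairs of kept keratins, 207 correlations passed an adjusted permutation p of 0.05, and 206 of these were positive. The share among pairs of all genes was not computed, so this count cannot be read as particular to keratins. The median r was 0.84 among the basal, 0.42 among the suprabasal, 0.76 among the papilla and 0.59 among the simple keratins, but 0.044 among those of hair, the largest class, against 0.18 for pairs of different classes. Many hair probes were dim, down to -5.51 for Krt71, and the part of noise near background in the hair median was not tested. For many members, however, the closest keratin was neither the textbook partner nor of the same class. Krt13 was closest to Krt32 (r = 0.953, rho = 0.956, adjusted permutation p = 0.000221 and 0.000416 over 1081 pairs), with r = 0.938 without Lean 7 and DIO 3, and Krt4, Krt78, Krt80 and Krt23 were also closest to Krt32, at 0.883, 0.882, 0.826 and 0.771. Their rho values were 0.870, 0.900, 0.804 and 0.828, with adjusted permutation p of at most 0.000676, and r was 0.854, 0.871, 0.771 and 0.695 without the 2 farthest samples of each.

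Krt24, Krt35, Krt34 and Krt16 followed the hard pair. Krt24 and Krt35 were closest to Krt36 (r = 0.935 and 0.926), and Krt16 and Krt34 to Krt84 (r = 0.913 and 0.835). Their rho values were 0.913, 0.924, 0.880 and 0.787, with adjusted permutation p of at most 0.000901, and r was 0.898, 0.900, 0.916 and 0.763 without the 2 farthest samples of each. The simple keratins split. Krt7 and Krt19 were closest to each other (r = 0.956, rho = 0.839, adjusted permutation p = 0.000221 and 0.000676), Krt20 to Krt75 (r = 0.949, rho = 0.905), and Krt17 to Krt7 (r = 0.925, rho = 0.849), with adjusted permutation p of at most 0.000527 for the last 2 relations, whereas Krt8 and Krt18 were closest to each other at 0.642. Without DIO 1 and DIO 6 these values were 0.849, 0.776, 0.768 and 0.712. Krt5 was closest to the Krt81 probe (r = 0.956, rho = 0.936, and r = 0.901 without DIO 6 and DIO 3), and so was the Krt85 probe (r = 0.954, rho = 0.917, and r = 0.898 without the same samples; adjusted permutation p of at most 0.000416 for both), whose sequence is nearly that of Krt81. Another probe of Krt85 ran against the probe used, at r = -0.403.

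**Figure D5:**
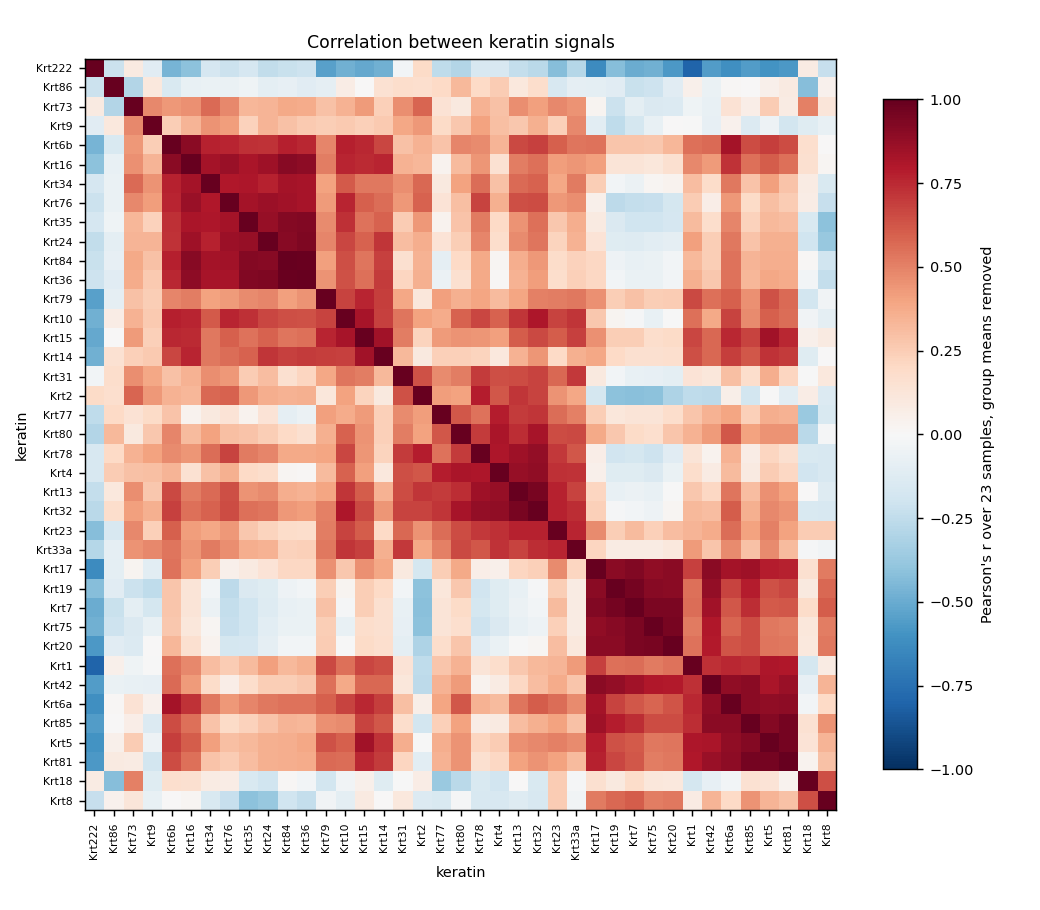
Pearson's r (colour, from -1 to 1) between the signals of the 39 keratins well above background on all 23 arrays, group means removed, ordered by average-linkage clustering. Blocks form around Krt36 and Krt84, around Krt13 and Krt32, around Krt7, Krt19, Krt20 and Krt75, and around Krt5 and Krt81.

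Genes that anchor or bundle keratin filaments were set beside the keratins. Of 32 listed genes of desmosomes, hemidesmosomes and keratinocyte regulation, 31 were kept and 0 passed in any comparison. In DIO-R against DIO 28 of 31 estimates were positive, against 51.7% of all genes, with a median of 0.34. An unadjusted p under 0.05 was found for 16 of these and for 1 negative estimate, against 9.73% of all genes in either direction. Between DIO and Lean, 26 of 31 were negative, against 58.9% of all genes, with a median of -0.25, and 6 had an unadjusted p under 0.05, against 8.95%. This list and the further lists below were chosen with earlier results of these data known. Genes of a list also share their samples, so such counts are no independent votes. Ppl, the cytolinker periplakin, averaged 4.73 ± 0.33 in DIO-R, 4.18 ± 0.24 in DIO and 4.63 ± 0.54 in Lean (SD, n = 8, 8 and 7), with an adjusted p of 0.447 in DIO-R against DIO and 0.485 in DIO against Lean (limma). Dsp, desmoplakin, which ties keratin filaments to desmosomes, differed by 0.35 ± 0.14 in DIO-R against DIO, and Dsc2, a desmosomal cadherin, by 0.43 ± 0.16. Ovol1 and Grhl1, transcription factors of keratinocyte differentiation, differed by -0.58 ± 0.23 and -0.38 ± 0.15 in DIO against Lean. In DIO-R against Lean, Itgb4, a hemidesmosome integrin, differed by 0.23 ± 0.10 and Dsg4, a desmosomal cadherin of hair, by -0.82 ± 0.38. The Dsg4 probe was dim, with means of -5.06 in DIO-R and -4.23 in Lean.

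Lists for other cell contents were read in the same comparisons. Between DIO and Lean the cornified envelope list, products of the outermost cell layers, had 18 of 18 negative estimates, against 58.9% of all genes. Its median was -0.71 beside -0.04 over all genes, and 13 had an unadjusted p under 0.05, against 8.95%. In DIO-R against DIO 18 of 18 were positive, against 51.7%, with a median of 0.51 beside 0.01. There 5 had an unadjusted p under 0.05, against 9.73%. In these comparisons 0 genes of the list passed. Medians in DIO-R against DIO and in DIO against Lean were -0.20 and 0.33 for fibroblast and matrix genes, -1.12 and 1.20 for erythrocyte genes, -0.38 and 0.26 for macrophage and dendritic cell genes, -0.18 and 0.38 for cell cycle genes, and 0.27 and -0.18 for taste cell genes. Skeletal muscle genes had -0.56 and -0.02 and von Ebner gland genes -0.43 and -0.15. In DIO-R against Lean the median was -0.99 for von Ebner gland genes, with 9 of 9 negative. It was -0.55 for skeletal muscle genes, with 16 of 17 negative, where 44.6% of all genes had a positive estimate. Medians of the other lists in DIO-R against Lean ran from -0.22 (cornified envelope) to 0.15 (cell cycle). The mean level of the cornified envelope list ran from -0.61 to 0.71 over DIO-R samples, from -1.24 to 0.59 over DIO samples and from -0.78 to 1.099 over Lean samples. That of the erythrocyte list ran from -1.34 to 0.55 in DIO-R, from -0.18 to 1.64 in DIO and from -1.63 to 0.30 in Lean, and that of the fibroblast list from -0.62 to 0.39, from -0.69 to 0.57 and from -0.88 to 0.23 in the same groups. Of the listed genes, 18 of 20 were kept for the cornified envelope, 7 of 9 for erythrocytes, 15 of 15 for fibroblasts and matrix, 17 of 17 for skeletal muscle and 9 of 12 for the gland. Aif1, a macrophage gene, was the only gene of these lists that passed, in DIO against Lean. What part these contents had in the keratin values was not tested.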

How the data were processed

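The authors deposited a scanner table for each array. Its software was Agilent Feature Extraction (version 10.10.1.1 in the file headers). Its spot intensity is background-subtracted and detrended within the array, per the file headers, and nothing was set equal between arrays. Marks for spots well above background come with these deposited tables. The authors also deposited a log2 value table, for which the submitters' processing notes name limma without the steps; it served as an alternative and holds the probe used for 42 of the 51 keratins.

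From the intensity, log2 values were taken and the 75th percentile of each array over its spots other than controls was subtracted. Outlier spots were left out, spots of a probe were averaged, and each gene kept its brightest probe if well above background on 7 arrays or more. Limma 3.58.1 in R 4.3.3 fitted a mean per group over all 23 arrays with no covariate, two-sided, and Benjamini-Hochberg adjustment ran over all 28366 genes kept, never over the keratins alone. The steps were tested on data simulated with each gene's own mean and spread, and with 50 genes changed in DIO by each of several sizes. In DIO against Lean, 26% of genes changed by 0.5 log2 units passed, 76% at 1 unit and 96% at 2 units. Changes of 0.5 units or less would thus often be missed. Files were read with data.table (version 1.17.8). Correlations were permuted and figures drawn in Python 3.11.15 with matplotlib 3.10.9.

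Class membership follows textbook sites of expression. Described were all kept basal, suprabasal, papilla and simple keratins, the 5 keratins with the smallest p in each comparison and the 3 brightest of the rest, with the 3 partner genes of smallest p per comparison, of which 1 is not reported here. Members and lists were chosen with earlier results of these data known. Correlations between the deviations of same-numbered samples were mixed. They ran from -0.215 to 0.158 over 7 pairs of DIO-R and DIO, 1 of them above 0.1. Over 5 pairs of DIO and Lean they ran from -0.243 to 0.321, with 2 above 0.1. Over 6 pairs of DIO-R and Lean they ran from -0.367 to 0.334, with 1 above 0.1. The numbers were not used as a block in the main fit, and counts with that block are given below. Alternatives were other background corrections, scalings, probe filters, probe means, the slide as a block, array weights, 2-group fits and leaving out samples. Precision is limited by the 7 or 8 arrays of a group, which carry no read depth.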

Additional observations from a re-analysis of the deposited data

Results flagged for a closer look

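Of 102 sets of values (a described keratin in 1 group), 9 held a sample far from the others by Dixon's test, where chance gives about 1 in 20. In DIO-R papillae, DIO-R 2 had Krt2 at -2.04, with the next sample at -1.56. In DIO papillae, DIO 2 had Krt2 at -2.90 (next -1.87) and Krt78 at 2.72 (next 4.35), both as the lowest sample. DIO 10 was lowest for Krt18 at 6.51 (next 7.13), DIO 8 for Krt77 at -4.68 (next -4.02), DIO 5 for Krt82 at -6.84 (next -5.01) and DIO 6 for Krt79 at 2.06 (next 2.94). In Lean papillae, Lean 9 was highest for Krt24 at 3.78 (next 2.90) and Lean 10 for Krt8 at 5.73 (next 5.52). The Krt20 and Krt7 values of DIO 1 did not stand out by this test, because DIO 6 lay beside them.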

How the results depend on the processing

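With 0 keratins called in each comparison by limma, 36 alternatives each also called 0, and the smallest adjusted p of any described keratin under them was 0.282 in DIO-R against DIO, 0.167 in DIO against Lean and 0.12 in DIO-R against Lean. A difference that was not called and lay under its own standard error was given no direction: 151 of 3654 values changed sign in that range. The other sign changes were 4: without DIO 1 and DIO 6 Krt20 moved to 0.0936 in DIO against Lean, Krt17 to -0.0663 and Krt7 to -0.0912 in DIO-R against DIO, and with the mean of all probes Krt85 moved to -0.117 in DIO-R against Lean. Class medians moved by less than the spread of the class between samples. Over the alternatives the suprabasal median in DIO against Lean ran from -0.342 to -0.137 and the basal median in DIO-R against DIO from 0.152 to 0.286. Medians that changed sign were those of the basal (-0.0743 to 0.0989), papilla (-0.227 to 0.0659) and simple (-0.193 to 0.0936) keratins in DIO against Lean and of the suprabasal keratins in DIO-R against Lean (-0.235 to 0.0856).

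The count of all genes called, the background of the keratins, was less steady. In DIO-R against DIO it was 17, and 27 with quantile normalization, 26 with the authors' value table, 38 with array weights, 10 without DIO 1 and DIO 6, and 11 to 24 with single samples left out, at 11 without DIO-R 5, 8 or 10 and without DIO 1, 6 or 8. In DIO against Lean it was 1, and 2 with normexp background, 9 with the authors' value table, 3 with the slide as a block, 61 with array weights, 3 with trend and robust eBayes, 27 without DIO 1 and DIO 6, and 1 to 37 with single samples left out, where dropping DIO 6 gave 37, Lean 7 gave 17, DIO-R 6 gave 8, DIO 3 gave 3, and DIO-R 2 or DIO-R 3 gave 2. In DIO-R against Lean it was 36, and 19 with median scaling, 109 with array weights, 58 without DIO 1 and DIO 6, and 26 to 64 with single samples left out, the highest without Lean 3. With the replicate number as a block, limma called 4, 0 and 9 genes in DIO-R against DIO, DIO against Lean and DIO-R against Lean, and 0 keratins in each. At an unadjusted p under 0.05 (limma) the DIO against Lean count under that block was 1356 of 28366 genes, against 2540 without it. The labels do not say what a number marks. The cause of these shifts was not tested. With other backgrounds, scalings or samples r ran from 0.98 to 0.991 for Krt84 with Krt36 and from 0.836 to 0.884 for Krt4 with Krt13; p-values were computed for the reported setting alone. A gene's single probe, bulk tissue and 7 or 8 samples in a group limit what can be told of a keratin, and dim hair keratins lie close to background.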
